A study of Mus musculus with 4 samples.

Results

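The chemokine genes Ccl1, Ccl3, Ccl4, Ccl5 and Xcl1, which T cells transcribe, were followed through 3 classes of donor T cells from mice with graft-versus-host disease. They are 5 of the 31053 genes in the deposited matrices, and each matched 1 row by name. The genes were chosen by their measured levels in these same libraries, among them the higher Ccl3 and Ccl4 in conventional CD4 cells beside CD226-deficient regulatory T (Treg) cells, so levels, shares of cells and differences are given as a description of these samples.

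BALB/c recipients were irradiated with 900 cGy on day 0 and given T-cell-depleted C57BL/6 bone marrow carrying CD45.1 and CD45.2, and CD45.2 Treg cells sorted as CD4+ Foxp3-GFP+ CD25hi. Wild-type CD45.1 conventional T cells followed 2 days later. Living H-2Kb+ TCRb+ spleen cells were sorted 8 days after the disease was induced, stained with barcoded antibodies to CD45.1 and CD45.2, and sequenced as single cells by a 3′ end method. The 4 libraries differed in the Treg genotype: CD226-/- TIGIT-/- (double knockout), CD226-/- TIGIT+/+ (CD226 knockout), CD226+/+ TIGIT-/- (TIGIT knockout) and CD226+/+ TIGIT+/+ (wild type). Each genotype had 1 library, a pool of 3, and the labels do not say whether recipients or donors were pooled. Only Treg-origin cells carried the genotype. Conventional CD8 and CD4 cells were wild type in every library, and the library names below give the genotype of the Treg cells that were transferred with them. CD226 is an activating receptor and TIGIT an inhibitory receptor that share ligands.

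Chemokines are small secreted proteins that guide leukocytes through G-protein-coupled receptors. CCL3 and CCL5 bind CCR1, a receptor of activated T cells and myeloid cells, and CCL4 is a close relative of CCL3. CCL1 binds CCR8, a receptor found on Treg cells and on Th2 cells. XCL1, made by CD8 T cells and natural killer cells, binds XCR1 on cross-presenting dendritic cells. Activated T cells release CCL3, CCL4 and XCL1 soon after antigen contact, while CCL5 is typical of effector and memory CD8 T cells and comes late.

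Of the members, 3 had a promoter sequence in the RefSeq table (GRCm38.p6, the sequence of mm10), each with 250 bases before and 50 after the start site, and these are shown because the genes they precede were read out in the same cells at very different levels. Ccl4 and Ccl5 were not in that table. Sequences are 5′ to 3′ on the gene's own strand. Capitals mark matches to the NFAT core GGAAA, the RUNX core TGTGGT or the T-box core TCACAC on either strand.
Ccl1, chr11:82179763-82180062, minus strand: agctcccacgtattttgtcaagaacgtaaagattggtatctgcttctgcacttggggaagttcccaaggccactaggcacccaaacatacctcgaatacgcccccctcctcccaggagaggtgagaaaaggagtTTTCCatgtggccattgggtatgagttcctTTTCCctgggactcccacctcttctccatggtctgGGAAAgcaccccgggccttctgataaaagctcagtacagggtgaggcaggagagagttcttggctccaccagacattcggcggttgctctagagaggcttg
Ccl3, chr11:83649329-83649628, minus strand: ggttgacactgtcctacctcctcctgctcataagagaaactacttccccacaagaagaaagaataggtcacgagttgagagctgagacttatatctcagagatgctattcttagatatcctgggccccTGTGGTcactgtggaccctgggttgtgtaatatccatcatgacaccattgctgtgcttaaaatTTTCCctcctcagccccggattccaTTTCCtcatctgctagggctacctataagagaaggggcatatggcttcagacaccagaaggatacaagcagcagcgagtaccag
Xcl1, chr1:164935473-164935772, minus strand: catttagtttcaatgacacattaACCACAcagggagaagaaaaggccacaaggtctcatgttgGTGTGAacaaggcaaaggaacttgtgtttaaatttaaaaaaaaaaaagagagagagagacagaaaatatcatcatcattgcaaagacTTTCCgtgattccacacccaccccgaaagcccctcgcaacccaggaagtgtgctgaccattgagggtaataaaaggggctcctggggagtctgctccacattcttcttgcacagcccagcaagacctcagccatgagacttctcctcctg
NFAT factors act downstream of calcium signals from the T cell receptor, and RUNX3 and the T-box factors T-bet and EOMES act in cytotoxic T cells. The NFAT core matched 3 times in Ccl1 (positions -116, -86 and -51 from the start site), 2 times in Ccl3 (-59 and -34) and 1 time in Xcl1 (-100). The RUNX core matched in Ccl3 (-122) and Xcl1 (-227), and the T-box core in Xcl1 alone among these 3 (-187). Short motifs are common: of 32851 promoters of the same length, 61.3% held the NFAT core, 26.7% held it at least 2 times, 16.8% held the RUNX core and 14.5% the T-box core. The AP-1 site TGANTCA, in 7.81% of promoters on either strand, and the TATA box TATAAA, in 8.32% on the sense strand, matched none of the 3. A match is a description of letters, not of binding. In the annotation of the files' build, Ccl3 (ENSMUSG00000000982, chr11:83647844-83649355, minus strand) and Ccl4 (ENSMUSG00000018930, chr11:83662584-83664683, plus strand) have start sites 13229 bases apart with 0 genes between them. Ccl5 (ENSMUSG00000035042, chr11:83525778-83530518, minus strand) lies 117326 bases from the end of Ccl3, with 4 genes between. Ccl1 (ENSMUSG00000020702, chr11:82176657-82305690, minus strand) is on the same chromosome, and Xcl1 (ENSMUSG00000026573, chr1:164931644-164935527, minus strand) overlaps Gm20743 on the other strand. Ccl1 spans 129034 bases in this annotation but 3147 in RefSeq, where it starts at 82179812. The Ccl1 promoter shown belongs to the RefSeq start and lies inside the longer annotated gene, so its motif positions hold for the RefSeq start only. RefSeq also has a Ccl4 transcript that starts at 83648624 and so overlaps Ccl3 on the opposite strand. Whether counting used the strand is not given in the sources used here, so reads of overlapping genes cannot be assigned with certainty.

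Depth was even over the libraries: 84061005 to 87743463 unique molecular identifiers (UMIs, each counting 1 captured transcript end) and 8597 to 11126 barcodes, of which 7654 to 10383 passed the cell filter. Treg-origin cells, whose antibody ratio (CD45.1 over CD45.2, log2) was below -0.6, numbered 376 (double knockout), 332 (CD226 knockout), 462 (TIGIT knockout) and 367 (wild type), and had medians of 3921.5 to 5372 UMIs a cell. Conventional cells, with a ratio above 2.2, gave 2098 to 3415 CD8 cells (8887 to 11901 UMIs) and 2750 to 3100 CD4 cells (7039.5 to 9013 UMIs) per library. T cell markers summed to 5745 to 7528 CPM (UMIs scaled to a fixed library total) in every class and library. The Treg markers Foxp3, Ikzf2, Il2ra and Ctla4 summed to 887 to 914 CPM in Treg-origin cells, against 113 to 139 CPM in conventional CD8 and 139 to 173 CPM in conventional CD4 cells, although only 78 to 90 Treg-origin cells per library held a Foxp3 UMI. The targeted gene Cd226 stood at 4.39 CPM (double knockout) and 4.01 CPM (CD226 knockout) in Treg-origin cells, against 32.5 CPM (TIGIT knockout) and 31.2 CPM (wild type). Tigit was at 5.86, 5.15, 8.60 and 9.11 CPM in the same order; these 3′ end counts do not check a deletion that lies elsewhere in the gene, and the TIGIT status is taken from the labels alone. Between 23 and 36 barcodes were shared by any 2 libraries. Markers of natural killer cells, which also make Ccl3, Ccl4, Ccl5 and Xcl1, stayed at or below 4.74 CPM in every class. In CD8 cells they stood at 1.33 CPM (double knockout), 4.74 CPM (CD226 knockout), 3.74 CPM (TIGIT knockout) and 1.57 CPM (wild type). In that order 4, 15, 14 and 4 CD8 cells held 3 or more of these UMIs. Libraries came from lane 4 (double knockout, TIGIT knockout) and lane 3 (CD226 knockout, wild type), so lane and TIGIT status cannot be told apart.

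Ccl5 was the chemokine of Treg-origin and CD8 cells, and the other 4 genes stood highest in conventional CD4 cells by their mean over libraries. Treg-origin values overlapped those of CD4 cells for Ccl3 and Ccl4, and CD8 values did so for Ccl4 and Xcl1. Xcl1 was higher in CD8 than in CD4 cells in the CD226-knockout (19.6 against 13.9 CPM) and TIGIT-knockout (15.8 against 11.5 CPM) libraries. Of the UMIs of the 5 genes together, Ccl5 held 62.1% to 87.5% in Treg-origin cells and 55.6% to 80.2% in CD8 cells, against 12.2% to 29.2% in CD4 cells. In CD4 cells the UMIs were spread over Ccl4 (23.0% to 32.4%), Ccl3 (16.4% to 23.8%) and Ccl1 (18.1% to 38.6%). At least 1 UMI of any of the 5 was seen in 30.3% to 42.8% of Treg-origin, 62.4% to 80.7% of CD8 and 28.2% to 40.9% of CD4 cells. UMIs count transcript ends and are not scaled by transcript length.

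**Figure D1:**
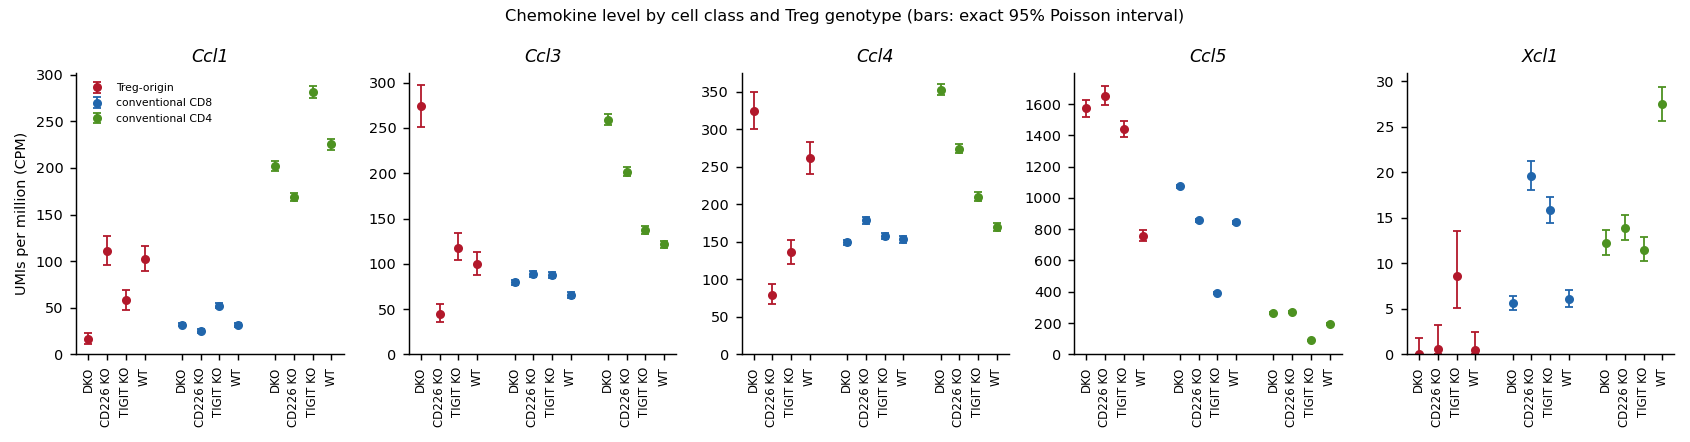
CPM of each chemokine (y axis, from 0) in Treg-origin, conventional CD8 and conventional CD4 cells of the double-knockout, CD226-knockout, TIGIT-knockout and wild-type libraries (x axis). Points are sums over cells and bars exact 95% Poisson intervals. Ccl5 lies at or above 758 CPM in all 4 Treg-origin sums and at or below 272 CPM in all 4 CD4 sums, while Ccl1 is highest in CD4 cells.

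Ccl5, a chemokine that cytotoxic T cells store and release, stood at 1572 CPM (double knockout), 1654 CPM (CD226 knockout), 1438 CPM (TIGIT knockout) and 758 CPM (wild type) in Treg-origin cells. CD8 cells had 1073 CPM in the double-knockout, 855 CPM in the CD226-knockout, 392 CPM in the TIGIT-knockout and 843 CPM in the wild-type library. CD4 cells had 262, 272, 88.8 and 194 CPM in that order. The Treg-origin and CD8 sums all lay above the CD4 sums, and the lowest Treg-origin sum (wild type) lay below 3 of the 4 CD8 sums. The fold changes were 2.77 (SE 0.23) on the log2 scale for Treg-origin against CD4 cells and 2.0 (SE 0.21) for CD8 against CD4 cells, with adjusted p 5.0e-08 and 1.5e-06 (edgeR quasi-likelihood test with library as block, Benjamini-Hochberg over 11814 genes, n = 4 libraries). Against CD8 cells, Treg-origin cells had 0.77 more (SE 0.21, adjusted p = 0.0058 by the same edgeR test), higher in 3 of 4 libraries, the wild-type library being the exception; without a library term this difference had an adjusted p of 0.072. Because Treg-origin cells differ in genotype between libraries, their spread holds genotype too. The members were chosen with their levels in these libraries known, so their p-values, here and below, describe these sums and are not independent support.

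Ccl1, the CCR8 ligand, was highest in CD4 cells and lowest, by the mean, in CD8 cells. In Treg-origin cells Ccl1 was at 16.1 CPM (double knockout), 110.4 CPM (CD226 knockout), 57.8 CPM (TIGIT knockout) and 102 CPM (wild type). CD8 cells held 31.6, 24.8, 52.3 and 31.3 CPM in that order. Conventional CD4 cells held 202 CPM in the double-knockout, 169 CPM in the CD226-knockout, 281 CPM in the TIGIT-knockout and 225 CPM in the wild-type library. Neither the Treg-origin nor the CD8 values reached those of CD4 cells. The fold changes were -1.68 (SE 0.26, adjusted p = 4.9e-05) for Treg-origin and -2.63 (SE 0.18, adjusted p = 1.4e-08) for CD8 against CD4 cells by edgeR. Treg-origin against CD8 cells gave 0.95 (SE 0.30, edgeR adjusted p = 0.013), higher in 3 of 4 libraries; without the CD226-knockout library the adjusted p was 0.13, without the wild-type library 0.16, and with DESeq2 0.17. Keeping only Treg-origin cells with a ratio below -1.6 turned that value to -0.77 (adjusted p = 0.21).

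Ccl3 and Ccl4, the neighbouring genes for MIP-1α and MIP-1β, differed less between classes. Ccl3 in Treg-origin cells stood at 274 CPM (double knockout), 44.6 CPM (CD226 knockout), 118 CPM (TIGIT knockout) and 99.8 CPM (wild type), CD8 cells had 79.4, 89.0, 87.6 and 65.4 CPM in that order, and CD4 cells had 259, 202, 137 and 121 CPM. Ccl4 stood at 325, 79.5, 136 and 261 CPM in Treg-origin cells of the same 4 libraries, at 149, 179, 157 and 153 CPM in CD8 cells, and at 353, 274, 210.3 and 169.6 CPM in CD4 cells. Every CD8 value of Ccl3 lay below every CD4 value, whereas the CD8 and CD4 ranges of Ccl4 overlapped and the Treg-origin values spanned both classes. CD8 against CD4 cells gave -1.08 (SE 0.18, edgeR adjusted p = 0.00022) for Ccl3 and -0.58 (SE 0.19, edgeR adjusted p = 0.021) for Ccl4. The Ccl4 call was lost without the double-knockout library (-0.40, adjusted p = 0.10), without a library term (adjusted p = 0.080) and with DESeq2 (adjusted p = 0.32). Treg-origin cells differed from CD4 cells by -0.45 for Ccl3 (edgeR adjusted p = 0.16) and -0.33 for Ccl4 (0.31), and from CD8 cells by 0.63 (0.053) and 0.25 (0.42). None of these 4 passed in the edgeR test as described, but the comparison with CD8 cells passed under several alternatives. For Ccl3 these included DESeq2 size factors (0.66, adjusted p = 0.044), marker-bearing barcodes left out (0.95, adjusted p = 0.0071), cells with no UMI of the other lineage (0.90, adjusted p = 0.010), the strict antibody ratio (1.44, adjusted p = 1.7e-05) and the CD226-knockout library left out (0.93, adjusted p = 0.0018). Ccl4 passed in edgeR at the strict ratio (1.16, adjusted p = 0.00039) and without the CD226-knockout library (0.55, adjusted p = 0.048). It also passed among Treg-origin cells with more Cd4 than Cd8 UMIs (0.61, edgeR adjusted p = 0.027). Without the filter on low counts all 4 comparisons passed in edgeR. The adjusted p was then 1.5e-20 for Ccl3 and 1.1e-15 for Ccl4 against CD4 cells, and 1.2e-29 and 7.2e-07 against CD8 cells. That fit took the spread of each gene from all genes together. These values therefore do not measure the spread of Ccl3 or Ccl4 between libraries. Both differences from CD4 cells changed sign among Treg-origin cells with a stricter antibody ratio. Without the double-knockout library, Ccl3 was lower in Treg-origin than in CD4 cells by edgeR (-0.77, adjusted p = 0.0090).

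Xcl1, the XCR1 ligand, was scarce. In Treg-origin cells the double-knockout library had 0 UMIs (exact 95% Poisson upper bound 1.80 CPM), the CD226-knockout library 1 UMI, the TIGIT-knockout library 18 UMIs in 2 cells and the wild-type library 1 UMI. CD8 cells held 5.63 CPM in the double-knockout, 19.6 CPM in the CD226-knockout, 15.8 CPM in the TIGIT-knockout and 6.08 CPM in the wild-type library, against 12.3, 13.9, 11.5 and 27.5 CPM in CD4 cells of the same libraries. Natural killer markers in CD8 cells were also higher in the CD226-knockout and TIGIT-knockout libraries than in the others. In these libraries the 5 richest CD8 cells held 85.9% and 78.0% of the Xcl1 UMIs. The part of natural killer cells in these levels was not tested. Treg-origin against CD4 cells gave -2.80 (SE 1.06, edgeR adjusted p = 0.042), lower in 4 of 4 libraries. The edgeR adjusted p was 0.098 without the double-knockout and 0.070 without the wild-type library. It was 0.10 with marker-bearing barcodes left out and 0.056 with cells with no UMI of the other lineage. The other comparisons of Xcl1 did not pass in the edgeR test as described (CD8 against CD4 cells -0.47, adjusted p = 0.24, and Treg-origin against CD8 cells -2.33, adjusted p = 0.096). The last passed with only the 8 sums of the 2 classes (edgeR adjusted p = 0.00033), with DESeq2 (adjusted p = 0.0057), at the strict ratio (edgeR adjusted p = 0.0082), and without the TIGIT-knockout (edgeR adjusted p = 0.047) or the wild-type library (edgeR adjusted p = 0.049). CD8 against CD4 cells passed at the strict ratio (-1.17, edgeR adjusted p = 4.4e-07), but changed sign without the wild-type library (0.058). Without the filter on low counts both passed in edgeR (adjusted p = 2.0e-14 for CD8 against CD4 and 2.3e-21 for Treg-origin against CD8 cells). The spread in that fit was taken from all genes together and is not that of Xcl1.

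Read over all genes, calls were common in these comparisons. For Treg-origin against CD4 cells 20.2% of genes were called higher and 23.7% lower, and 1 member was higher and 2 lower. CD8 against CD4 cells had 21.1% higher and 18.1% lower, and 1 member higher and 3 lower. Treg-origin against CD8 cells had 25.1% higher and 28.8% lower, and 2 members higher and 0 lower. With 5 members, nothing particular to them is read from these counts.

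The order of the mean levels was, for Ccl5, Treg-origin (1356 ± 408 CPM), CD8 (791 ± 286) and CD4 cells (204 ± 84.5, SD, n = 4 libraries each). Ccl1 averaged 71.6 ± 43.6 CPM in Treg-origin, 35.0 ± 11.9 in CD8 and 219 ± 47.3 in CD4 cells (SD, n = 4 libraries). For Ccl3 the means were 134 ± 98.2, 80.3 ± 10.8 and 179.9 ± 63.2 CPM, for Ccl4 200.3 ± 112, 159.6 ± 13.2 and 252 ± 79.9 CPM, and for Xcl1 2.40 ± 4.14, 11.8 ± 7.04 and 16.3 ± 7.52 CPM in the same order of classes (SD, n = 4 libraries). The SD of Ccl3 and Ccl4 was smallest in CD8 cells.

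A level in CPM can come from many cells with few transcripts or from few cells with many, and the members differed in this. In Treg-origin cells Ccl5 was seen in 34.0% (double knockout), 27.1% (CD226 knockout), 21.2% (TIGIT knockout) and 21.8% (wild type) of cells. In CD8 cells it was seen in 71.4%, 60.2%, 47.0% and 65.1%, and in CD4 cells in 26.5%, 26.1%, 12.6% and 24.5%. With every cell thinned to 2000 UMIs the shares were 26.3%, 18.7%, 15.3% and 15.3% in Treg-origin cells, 50.2%, 38.4%, 27.4% and 43.4% in CD8 cells and 13.4%, 12.9%, 5.21% and 10.9% in CD4 cells. CD8 cells had the highest share in every library at both depths. Treg-origin cells in the wild-type library had a lower share than CD4 cells at full depth and a higher one at equal depth. Except in the wild-type library (758 against 843 CPM), Treg-origin cells thus held more Ccl5 in CPM than CD8 cells with fewer positive cells. Positive Treg-origin cells had a mean of 21.8 to 32.1 Ccl5 UMIs, against 8.82 to 18.1 in CD8 cells and 5.87 to 9.72 in CD4 cells. As a measure of free RNA, 11 barcodes with B cell transcripts and almost no T cell transcripts were picked after the data were seen. They had a median of 9567 UMIs. Of these, 1 (9.09%, exact 95% interval 0.230% to 41.3%) held a Ccl5 UMI, and 1, with the same interval, held a Ccl3 UMI. Ccl1, Ccl4 and Xcl1 were seen in 0 of the 11 (exact 95% upper bound 28.5%). The intervals are wide, and no share near them should be read as expression. This includes the shares of Ccl3 below.

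**Figure D2:**
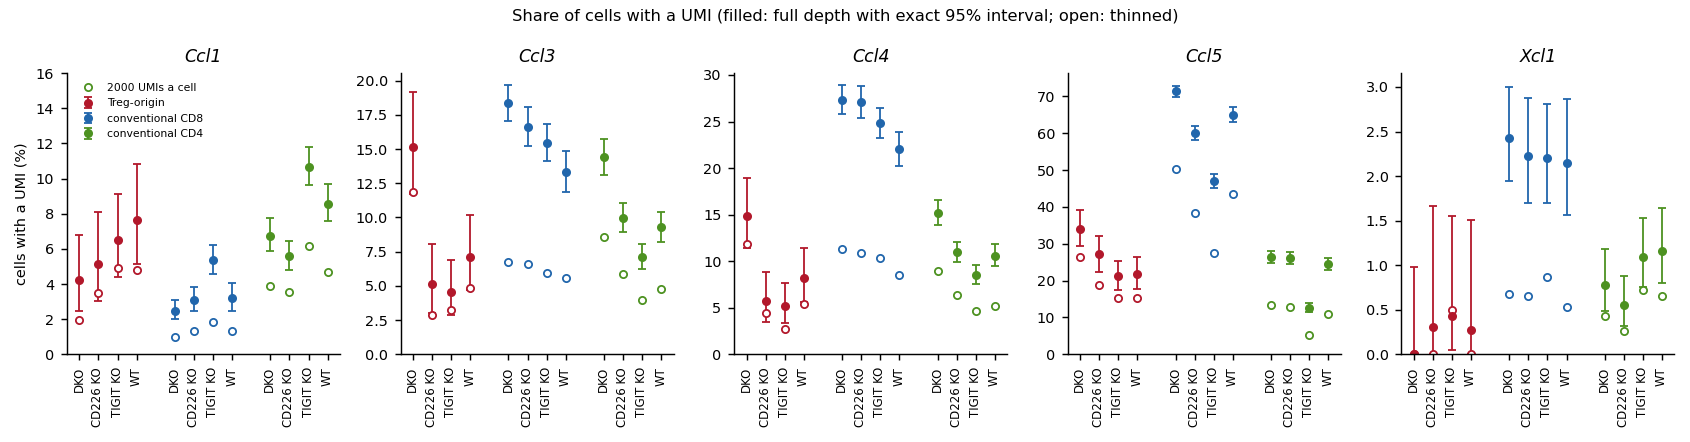
Share of cells with at least 1 UMI (y axis, percent, from 0, its scale differing by gene) by class and library (x axis). Filled points are at full depth with exact 95% binomial intervals, and open points are after thinning each cell to 2000 UMIs. Ccl5 reaches 71.4% of CD8 cells in the double-knockout library, while no class exceeds 2.43% for Xcl1.

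Ccl3 was seen in 18.4%, 16.6%, 15.4% and 13.3% of CD8 cells of the double-knockout, CD226-knockout, TIGIT-knockout and wild-type libraries, and in 14.4%, 9.97%, 7.13% and 9.27% of CD4 cells. The order of these shares goes against that of the levels, and CD8 cells were deeper: thinned, they were 5.60% to 6.78% in CD8 and 4.0% to 8.58% in CD4 cells, so no order is read from them. What differed was the amount in positive cells, with a mean of 5.06 to 6.86 Ccl3 UMIs in CD8 cells and 13.9 to 18.9 in CD4 cells. For Ccl4 the means were 6.37 to 9.70 UMIs in CD8 and 17.1 to 23.4 in CD4 cells. The median positive CD8 cell held 1 or 2 Ccl3 UMIs and 1 Ccl4 UMI, and the median positive CD4 cell 2 or 3 Ccl3 UMIs and 2 to 4 Ccl4 UMIs, so a minority of cells carried most of the transcripts. Ccl1 was seen in 5.58% to 10.7% of CD4 cells, with a mean of 21.9 to 28.2 UMIs in them, and a single CD4 cell of the wild-type library held 717 Ccl1 UMIs. The richest CD4 cell held 636 UMIs of Ccl3 and 586 of Ccl4, both in the CD226-knockout library. Xcl1 was seen in 2.14% to 2.43% of CD8 cells and 0.549% to 1.16% of CD4 cells.

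The 5 richest cells of a class and library held 2.16% to 3.89% of the Ccl5 UMIs in CD8 cells and 12.1% to 35.3% in CD4 cells. In CD4 cells they held 19.8% to 31.5% for Ccl1, 17.4% to 29.9% for Ccl3 and 17.7% to 28.1% for Ccl4, and 59.8% to 90.8% for Xcl1. In CD8 cells Ccl1 (39.0% to 70.0%) and Xcl1 (41.3% to 85.9%) were also held by few cells. In Treg-origin cells they held 26.6% to 33.7% for Ccl5, 60.9% to 91.2% for Ccl1, 46.7% to 92.7% for Ccl3 and 44.4% to 88.4% for Ccl4. Treg-origin values of Ccl1, Ccl3 and Ccl4 in 1 library are therefore values of a handful of cells.

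Ccl3 and Ccl4 were found in the same cells. In CD4 cells 56.6% to 65.9% of the cells with Ccl3 also had Ccl4, and cells with both were 4.34 to 6.62 times as many as the product of the shares gives (7.54 to 12.6 times at 2000 UMIs a cell). In CD8 cells the excess was 2.22 to 2.70 times, and in Treg-origin cells 4.83 to 9.25 times. Over single cells the log values correlated at r = 0.59 to 0.67 in CD8 and 0.78 to 0.82 in CD4 cells, a description over cells of 1 library that share its depth. Xcl1 met several members: of the CD4 cells with Xcl1, 61.8% to 77.3% also had Ccl1 (an excess of 5.78 to 12.6 times, from 12 to 21 cells with both per library), 52.9% to 64.7% had Ccl3 (3.79 to 7.43 times) and 58.8% to 64.7% had Ccl4 (4.19 to 6.88 times). Of the CD8 cells with Xcl1, 9.64% to 22.2% had Ccl1, 26.5% to 40.0% Ccl3 and 42.2% to 48.3% Ccl4. Ccl1 and Ccl3 met 2.19 to 3.14 times as often as the product of their shares in CD4 cells.

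Ccl5 stood apart from Ccl1. In CD4 cells the pair met 0.708 to 1.01 times as often as the product of the shares, and 0.426 to 0.755 times at 2000 UMIs a cell. At that depth the same pair was at 0.482 to 0.987 in CD8 cells, and Ccl5 with Xcl1 at 0.173 to 0.584 there. Ccl5 met Ccl3 at 1.77 to 2.12 times in CD4 cells, 2.06 to 3.0 times in Treg-origin cells and 1.04 to 1.31 times in CD8 cells. Over the 12 sums of class and library, Ccl3 and Ccl4 correlated at r = 0.89 and Ccl1 and Ccl5 at -0.76, over points that share libraries and cell classes.

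**Figure D3:**
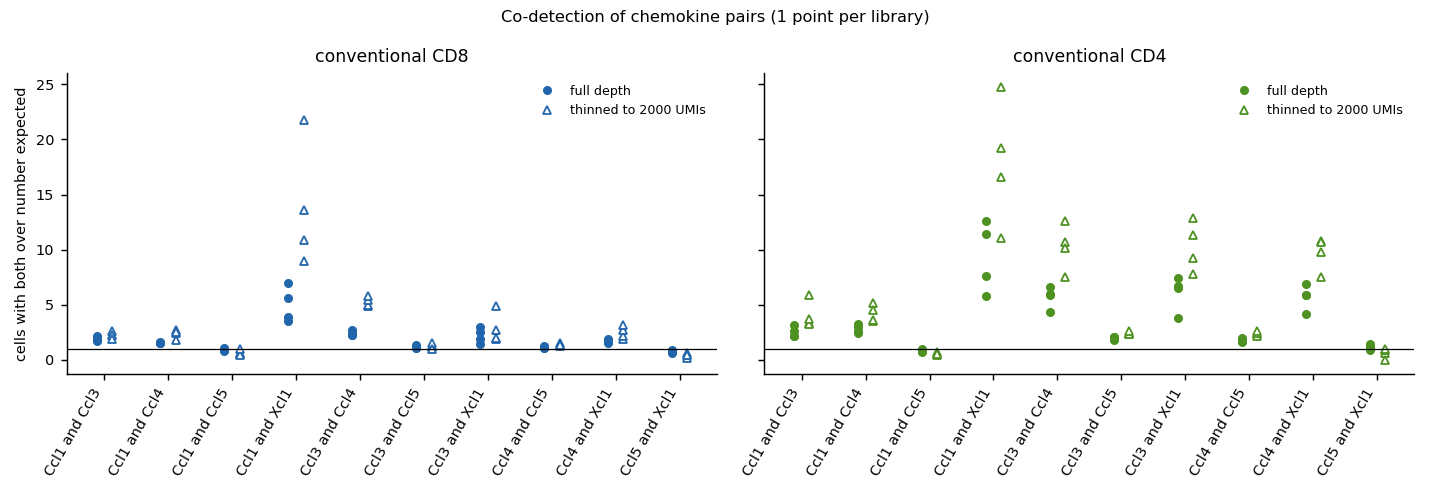
Cells with a UMI of both members of a pair over the number expected from the product of the 2 shares (y axis), in conventional CD8 (left) and CD4 cells (right), for the 10 pairs (x axis), 1 point per library. Filled points are at full depth, open triangles at 2000 UMIs a cell, and the line marks 1. Ccl3 with Ccl4 and Ccl1 with Xcl1 stand above 1 in all 4 libraries and Ccl1 with Ccl5 at or below about 1.

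Levels were also compared between cells with and without a UMI of an effector gene. Ccl3 and Ccl4 followed Ifng, the gene for interferon gamma: in CD4 cells with an Ifng UMI, Ccl3 stood at 554 CPM (double knockout), 436 CPM (CD226 knockout), 303 CPM (TIGIT knockout) and 234 CPM (wild type), and in those without at 37.2, 19.2, 12.1 and 13.5 CPM in that order. Cells with Ifng, 33.9% to 38.8% of CD4 cells, held 91.8% to 94.98% of the Ccl3 UMIs and 86.1% to 94.4% of the Ccl4 UMIs, though only 43.0% to 48.8% of all UMIs. In CD8 cells the ratio for Ccl3 was smaller, 5.62 to 6.62, and in Treg-origin cells, with 46 to 93 Ifng-positive cells a library, it was 6.53 to 145. Positive cells were deeper (medians of 9400 to 11668 UMIs with Ifng and 6166 to 7604 without in CD4 cells).

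Ccl5 followed Gzmk, the gene for granzyme K. CD4 cells with a Gzmk UMI had 950 CPM of Ccl5 in the double-knockout, 1018 CPM in the CD226-knockout, 374 CPM in the TIGIT-knockout and 709 CPM in the wild-type library, and those without had 147, 113, 44.5 and 90.7 CPM. The ratio was 2.86 to 4.01 in CD8 and 6.44 to 8.99 in CD4 cells. In Treg-origin cells it was larger. The 20 to 50 Treg-origin cells with Gzmk in each library had 8142 to 15069 CPM of Ccl5 and held 50.3% to 86.9% of its UMIs, and those without had 240.4 to 845 CPM. Ccr9, a gut-homing receptor gene, was seen in 80 to 127 Treg-origin cells per library. Treg-origin cells without it had 2282 CPM (double knockout), 2212 CPM (CD226 knockout), 2152 CPM (TIGIT knockout) and 1199 CPM (wild type) of Ccl5. Those with it had less Ccl5, at 7.82, 112, 111 and 14.0 CPM in that order. Ccl3 and Ccl4 were also low there (at most 12.8 and 4.10 CPM), while Ccl1 was not (21.9 to 377 CPM). In Treg-origin cells with a Foxp3 UMI, Ccl5 was 0.445 to 0.750 times the level of the others, lower in 4 of 4 libraries. The 260 to 348 cells with a UMI of Foxp3 or Ikzf2 had 0.708 to 2.22 times the Ccl5 of the others, higher in 2 of 4 libraries. Cells with more Cd8 than Cd4 UMIs held 1.66% to 9.16% of the Ccl5 UMIs; these last 2 divisions were added after the data were seen.

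Ccl1 was higher in cells with Csf2 or Il13, the genes for GM-CSF and interleukin 13. In CD4 cells with Csf2, 3.2% to 5.05% of cells, Ccl1 stood at 2324 CPM (double knockout), 951 CPM (CD226 knockout), 2098 CPM (TIGIT knockout) and 1582 CPM (wild type), against 113, 119, 178 and 134 CPM in those without. These few cells held 33.8% to 46.4% of the Ccl1 UMIs. With Il13 the ratio was 4.47 to 19.6 and with Il2 3.42 to 12.9, and the other genes but Ccl5 were higher with Csf2 too, in 4 of 4 libraries: Ccl3 2.65 to 8.25 times, Ccl4 3.07 to 7.67 times and Xcl1 3.18 to 26.0 times. For Ccl5 the level in CD4 cells with Csf2 was 0.273 to 0.391 times that in cells without. CD4 cells with Cxcr5, a receptor gene of follicular helper T cells, had 1.23 to 8.84 times the Ccl5 of those without and 0.00660 to 0.127 times the Ccl1. In cycling CD4 cells, those with Mki67, Ccl5 was 0.268 to 0.559 and Ccl1 0.294 to 0.545 times the level of the others.

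**Figure D4:**
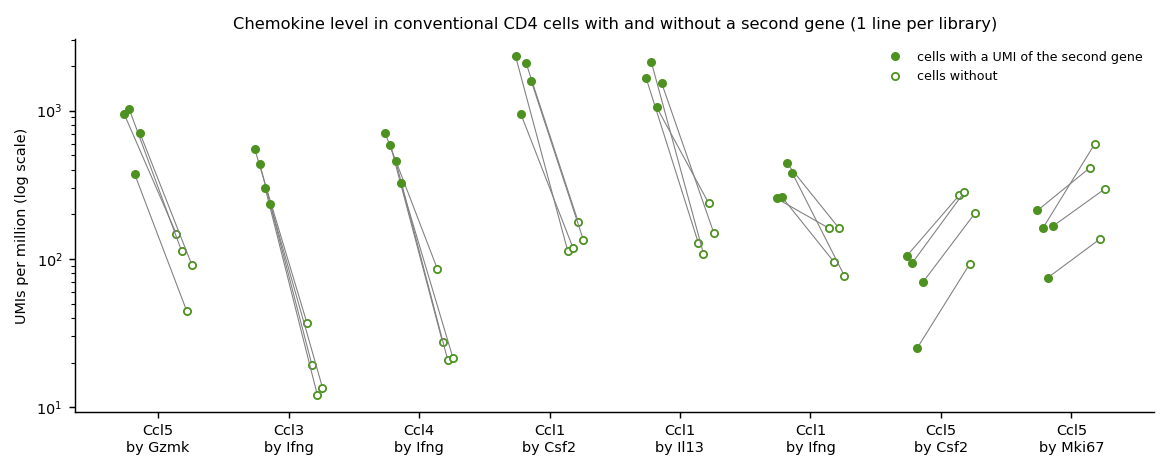
Level of a chemokine (y axis, CPM, log scale) in conventional CD4 cells with (filled) and without (open) a UMI of a second gene, 1 line per library, in the order double knockout, CD226 knockout, TIGIT knockout and wild type within each group. Ccl3 and Ccl4 fall in every library without Ifng, Ccl5 without Gzmk and Ccl1 without Csf2 or Il13, while Ccl5 is higher without Csf2 or Mki67.

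The genes most like each member over single cells, by the mean over 4 libraries of Pearson's r of log values among genes seen in at least 5% of cells, gave a similar grouping. In CD4 cells these were Ifng (r = 0.41), Rgs16 (0.37) and Il21 (0.27) for Ccl3 and the same 3 for Ccl4 (0.39, 0.38 and 0.27), from 7656 genes. Ccl5 was closest to Gzmk (0.42) and Dcp1b (0.29). Ccl1 was closest to Hivep3 (0.30), Tnfsf11 (0.29), which encodes RANKL, and Bcl2a1b (0.28). Xcl1 was closest to Nrgn (0.21), Cd160 (0.18) and Tnfrsf9 (0.17). In CD8 cells, from 8036 genes, Ccl3 was closest to Ifng (0.31), Irf8 (0.20) and Prf1 (0.19), Ccl4 to Ifng (0.29), Irf8 (0.21) and Bcl2a1b (0.18), and Ccl5 to Gzmk (0.49), Gzma (0.42) and Wdr95 (0.32). Ccl1 there was closest to Tnfrsf4 (0.19), which encodes OX40, Bcl2a1b (0.15) and Lgals7 (0.15), and Xcl1 to Nrgn (0.18), Crtam (0.14) and Bcl2a1b (0.14). These are weak correlations over sparse counts. Over the 12 sums, the 3 closest of 5159 genes were Appl1, Tnfsf8 and Degs1 for Ccl1 (r = 0.90 to 0.93), Tet3, Eea1 and Ppm1a for Ccl3 (0.90), Ppfia1, Zranb1 and Mgat2 for Ccl4 (0.89 to 0.93), Cd27, Vps37b and Prkch for Ccl5 (0.93 to 0.95), and Rala, Mindy3 and Commd3 for Xcl1 (0.93 to 0.96).

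Between genotypes there was 1 library each, so no test was made and the intervals below hold counting error only. The 5 ratios of CPM formed per class were CD226 loss with TIGIT present and absent, TIGIT loss with CD226 present and absent, and the loss of both. As background, genes averaging 20 CPM or more that lay at least 1.5-fold apart in either direction were counted, and 4 members reached that level in each class (Xcl1 in none), giving 20 ratios a class. In CD4 cells 8 of 20 member ratios lay past 1.5-fold, in CD8 cells 4 and in Treg-origin cells 15. The members were picked with these differences known, so nothing is read from the counts.

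In CD4 cells CD226 loss in the Treg cells went with more Ccl3 and Ccl4. The CD226 knockout over the wild type, both with TIGIT, gave a ratio of 1.66 [1.60, 1.74] for Ccl3 and 1.62 [1.56, 1.68] for Ccl4, and the double knockout over the TIGIT knockout, both without it, gave 1.88 [1.81, 1.96] and 1.68 [1.62, 1.73]. Of 5089 genes, 0.197% lay past 1.5-fold in the first contrast and 0.472% in the second, and 0.059% (3 genes) were at least 1.5-fold higher in both: Ccl3, Ccl4 and S100a9. Ccl3 and Ccl4 were chosen with this difference known, so nothing is read from their place among these 3 genes. S100a9, a neutrophil gene, stood at 62.2 CPM in the double-knockout, 19.7 CPM in the CD226-knockout, 1.47 CPM in the TIGIT-knockout and 1.85 CPM in the wild-type library. The neutrophil list (S100a8, S100a9, Ngp, Camp, Lcn2, Retnlg) summed to 132, 43.1, 3.45 and 4.10 CPM in CD4 cells in that order, with 3 or more UMIs in 2, 3, 1 and 1 cells, and with 0, 0, 1 and 0 of its 6 genes at 0. Barcodes with 3 or more UMIs of another cell type's markers, erythroid markers aside, were also left out. Ccl3 then had ratios of 1.87 (TIGIT present) and 1.78 (TIGIT absent), and Ccl4 1.72 and 1.62. CD4 cells with 3 or more erythroid marker UMIs stayed in. They numbered 109 (double knockout), 107 (CD226 knockout), 37 (TIGIT knockout) and 78 (wild type). Without the 5 richest cells Ccl3 had 1.42 and 2.03, and Ccl4 1.46 and 1.81.

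The difference can be divided into the share of positive cells and the amount in them; the 2 backgrounds were not tested against each other. With TIGIT absent, the share of CD4 cells with Ccl3 was 14.4% in the double-knockout library, against 7.13% in the TIGIT-knockout library, a ratio of 2.02, while the mean per positive cell was 16.3 UMIs in the double-knockout and 16.04 UMIs in the TIGIT-knockout library. With TIGIT present, the shares were 9.97% in the CD226-knockout and 9.27% in the wild-type library (1.08-fold), while the means were 18.9 and 13.9 UMIs (1.36-fold). For Ccl4 the share ratio was 1.78 with TIGIT absent and 1.03 with TIGIT present. At 2000 UMIs a cell the share ratios of Ccl3 were 2.14 and 1.22. The Ccl3 shares lie inside the interval for free RNA (0.230% to 41.3%), and the part of free RNA in their ratios was not tested.

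TIGIT loss gave ratios nearer to 1 for Ccl3 and Ccl4 in CD4 cells: 1.13 and 1.24 with CD226 present and 1.28 and 1.29 with CD226 absent. Double loss gave 2.13 for Ccl3 and 2.08 for Ccl4, where 0.157% of genes lay past 1.5-fold. Ccl1 on CD226 loss had 0.750 [0.722, 0.778] with TIGIT present, which the strict antibody ratio turned to 1.23, and 0.718 [0.693, 0.745] with TIGIT absent (0.588 to 0.800 over the alternatives), and stood at 1.25 and 1.20 on TIGIT loss. Xcl1 had 0.507 with TIGIT present and 1.07 with TIGIT absent, since the wild-type library alone was high.

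Ccl5 was low in the TIGIT-knockout library in both conventional classes. In CD8 cells the level was 392 CPM there and 843 to 1073 CPM in the other 3 libraries, and in CD4 cells 88.8 CPM there and 194 to 272 CPM in the others. CD226 loss therefore gave 2.74 [2.69, 2.80] in CD8 and 2.96 [2.82, 3.101] in CD4 cells with TIGIT absent, against 1.01 [0.997, 1.03] and 1.40 [1.35, 1.45] with TIGIT present. TIGIT loss gave 0.464 [0.454, 0.475] in CD8 and 0.456 [0.435, 0.479] in CD4 cells with CD226 present, and 1.25 and 0.964 with CD226 absent. In CD8 cells both the share of positive cells (ratio 1.52 for CD226 loss with TIGIT absent) and the mean per positive cell (1.99) differed. Only 0.476% (CD226 loss, TIGIT absent) and 0.238% (TIGIT loss, CD226 present) of 5045 genes lay past 1.5-fold in CD8 cells, and in CD4 cells 0.472% and 0.118%. Cells of this library were also the shallowest. At 2000 UMIs a cell the CD8 ratios were 2.56 and 0.510, and the part of depth was not tested beyond this. The neutrophil list in CD8 cells was at 6.04, 4.02, 78.5 and 46.2 CPM in the order double knockout, CD226 knockout, TIGIT knockout and wild type. Without barcodes with markers of other cell types, erythroid markers aside, the CD8 ratios were 2.70 and 0.442. The part of such cells was not tested beyond this. With 1 library per genotype, this library and its genotype cannot be told apart. Gzmk, the gene most like Ccl5, was at 161, 127, 88.5 and 156 CPM in CD8 cells of the 4 libraries in that order and at 38.6, 40.0, 26.6 and 32.5 CPM in CD4 cells.

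In CD8 cells Ccl3 and Ccl4 stayed within 1.5-fold in all 5 contrasts, with ratios of 0.892 to 1.36 and 0.834 to 1.17. Over the alternatives Ccl3 reached 1.68 (TIGIT loss, CD226 present), past 1.5-fold, and Ccl4 reached 1.49 (CD226 loss, TIGIT present). Ccl1 had 0.604 for CD226 loss with TIGIT absent and 1.67 for TIGIT loss with CD226 present, and over the alternatives these ran from 0.164 to 0.853 and from 1.16 to 2.74, so that some ended within 1.5-fold. The remaining contrasts had 0.258% of genes past 1.5-fold (CD226 loss, TIGIT present), 0.119% (TIGIT loss, CD226 absent) and 0.238% (double loss) in CD8 cells, with 0 members, and TIGIT loss with CD226 absent had 0.0393% in CD4 cells, also with 0 members.

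**Figure D5:**
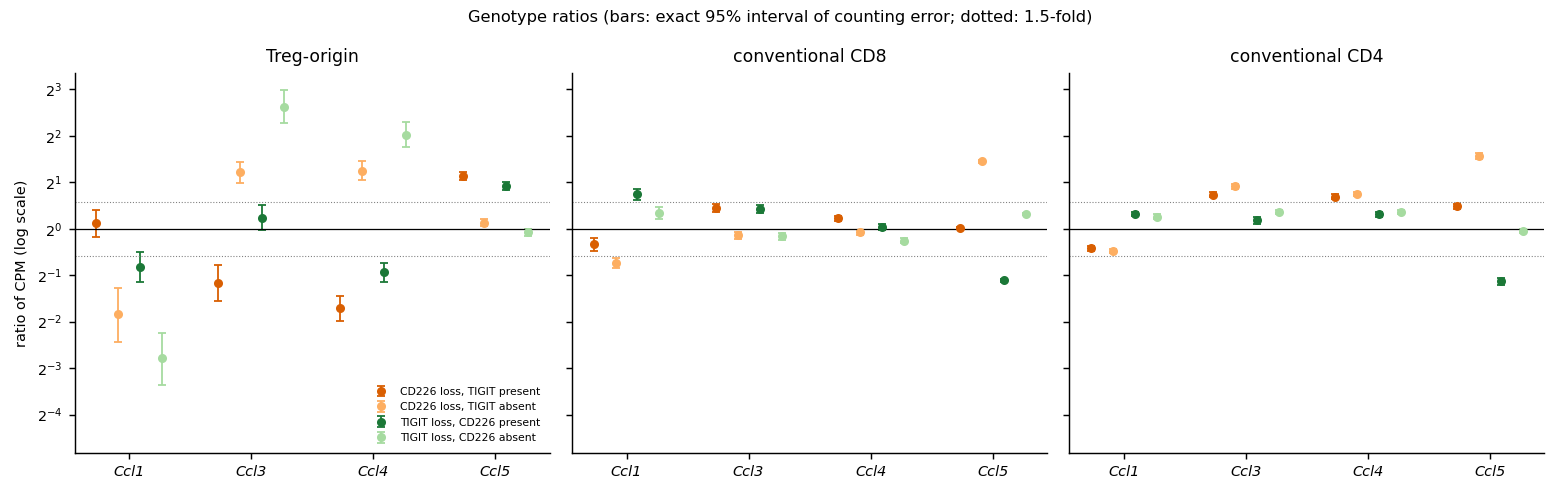
Ratio of CPM between genotypes (y axis, log scale) for 4 chemokines (x axis) in Treg-origin, conventional CD8 and conventional CD4 cells. Points are ratios for CD226 loss and TIGIT loss in each background of the other gene, bars exact 95% intervals of counting error, and dotted lines mark 1.5-fold. Ccl3 and Ccl4 exceed 1.5 on CD226 loss in CD4 cells in both backgrounds, and Ccl5 in conventional cells lies above 1 for CD226 loss with TIGIT absent and below 1 for TIGIT loss with CD226 present.

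In Treg-origin cells, which carry the genotype themselves, the ratios were large and rested on few cells. CD226 loss gave 0.447 [0.342, 0.581] for Ccl3 and 0.305 [0.252, 0.367] for Ccl4 with TIGIT present, but 2.32 [1.99, 2.71] and 2.38 [2.07, 2.75] with TIGIT absent. The double-knockout library had the most cells with Ccl3 (15.2%, against 5.12% for the CD226 knockout, 4.55% for the TIGIT knockout and 7.08% for the wild type). These shares lie inside the interval for free RNA (0.230% to 41.3%), and its part in them was not tested. Ccl5 was 2.18 [2.06, 2.32] for CD226 loss and 1.90 [1.79, 2.01] for TIGIT loss on a wild-type background and 2.08 [1.96, 2.201] for double loss: the wild-type library was lowest. Ccl1 was 0.146 to 0.279 in the contrasts of the double knockout with either single knockout. The share of genes past 1.5-fold was higher in this small class: of 5171 genes 3.25% (CD226 loss, TIGIT present), 3.5% (CD226 loss, TIGIT absent), 2.17% (TIGIT loss, CD226 present), 4.02% (TIGIT loss, CD226 absent) and 2.86% (double loss), with 3 of 4 members past it in each. The neutrophil list in Treg-origin cells was at 3.90, 4.58, 1671 and 1796 CPM in double-knockout, CD226-knockout, TIGIT-knockout and wild-type cells, with 1 cell of 3 or more UMIs in each of the last 2 and 0 in the others. B and plasma cell markers summed to 189.8, 931, 199.6 and 192 CPM, and macrophage and monocyte markers to 29.3, 58.9, 169 and 105 CPM. Their part in these ratios was not tested beyond leaving such barcodes out, which kept the Ccl3 and Ccl4 ratios on the same side of 1. Erythroid markers summed to 22.4, 997, 16.2 and 43.4 CPM in the same order of libraries. They were not used to leave barcodes out, and their part was not tested.

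The members' receptors and fellow cytokines were compared between classes by the edgeR test described above, over lists chosen with earlier results of these data known. Among the receptor genes, Ccr1 was at 8.78 to 22.4 CPM in Treg-origin, 1.45 to 2.44 CPM in CD8 and 2.99 to 5.59 CPM in CD4 cells, and rose in Treg-origin against CD4 cells (2.04, adjusted p = 9.5e-08) and against CD8 cells (3.14, adjusted p = 6.4e-10). Ccr3, an eosinophil and Th2 receptor that also binds CCL5, rose as well (2.45 and 2.59). Of 6 receptor genes listed, 4 were tested. In Treg-origin against CD4 cells 3 were higher and 0 lower (median 1.75), and against CD8 cells 3 were higher and 1 lower (median 2.80). CD8 against CD4 cells had 1 higher and 2 lower (median -0.62). Ccr8 did not exceed 3.47 CPM in any class. The median of all genes was -0.02 for Treg-origin against CD4 cells, 0.01 for CD8 against CD4 cells and -0.03 for Treg-origin against CD8 cells.

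Marker levels of other cells differed between the classes too. Macrophage and monocyte markers summed to 29.3 to 169 CPM in Treg-origin cells, against 36.8 to 50.2 CPM in CD8 and 27.2 to 39.3 CPM in CD4 cells. B and plasma cell markers summed to 189.8 to 931 CPM in Treg-origin cells, against 93.3 to 117 CPM in CD8 and 71.0 to 84.8 CPM in CD4 cells. The part of these markers in the differences of the listed genes was not tested.

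Other chemokines were few: 9 of 33 listed were tested. Of these 4 were higher and 0 lower in Treg-origin than in CD4 cells (median 0.55), led by Cxcl10 (2.37, adjusted p = 0.00025), a ligand of CXCR3, and Ccl17 (1.53, adjusted p = 0.013), a ligand of CCR4. CD8 against CD4 cells had 3 higher and 3 lower (median -0.16), and Treg-origin against CD8 cells 4 higher and 0 lower (median 0.36). Of 17 effector cytokine genes, 14 were lower and 1 higher in CD8 than in CD4 cells (median -1.07), the lowest being Il4 (-2.26, adjusted p = 8.9e-06) and Tnfsf11 (-2.12, adjusted p = 8.6e-12) and the 1 higher being Fasl (0.70, adjusted p = 1.2e-08). That is the direction of Ccl1, Ccl3 and Ccl4 and not of Ccl5. Treg-origin against CD4 cells had 8 higher, led by Il10 (2.27, adjusted p = 1.9e-08) and Il6 (1.77, adjusted p = 0.00042), and 3 lower, Il21 (-2.46, adjusted p = 0.00025), Ifng (-1.74, adjusted p = 7.6e-07) and Il2 (-1.40, adjusted p = 0.0019), with a median of -0.01. Against CD8 cells there were 8 higher and 3 lower (median 0.63).

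Of 30 regulators of activation and effector programmes, 12 were higher and 7 lower in Treg-origin than in CD4 cells (median 0.30), 8 and 16 in CD8 against CD4 cells (median -0.20), and 14 and 6 in Treg-origin against CD8 cells (median 0.32). Over all genes tested, 20.2% were higher and 23.7% lower in the first comparison, 21.1% and 18.1% in the second, and 25.1% and 28.8% in the third. These shares are the background for the other lists too. Fos (1.61, adjusted p = 8.2e-06) and Crem (1.32, adjusted p = 5.3e-09) were the highest and Tbx21 (-1.16, adjusted p = 2.0e-08), which encodes T-bet, and Bhlhe40 (-0.74, adjusted p = 1.7e-06) the lowest in Treg-origin against CD4 cells. Eomes (1.87, adjusted p = 5.7e-10), the other T-box factor, was highest in CD8 against CD4 cells.

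Cells at the edges of the antibody cut are described for Ccl5 with no test. Just inside it (ratio -1.1 to -0.6) Treg-origin cells had 111, 629, 427 and 402 CPM of Ccl5 in the double-knockout, CD226-knockout, TIGIT-knockout and wild-type libraries, and just outside it (-0.6 to -0.1) cells had 156, 2001, 534 and 917 CPM. Cells with both antibodies had 756, 2568, 312 and 1056 CPM in that order, and the 5 richest of the CD226-knockout library held 5.37% of its Ccl5 UMIs there.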

How the data were processed

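The authors deposited, per the file headers and the submitters' processing notes, filtered matrices of raw UMI counts per gene and barcode from Cell Ranger 3.1.0 on mm10, with 2 antibody counts; strand use and doublet handling are not given in the sources used here. From these counts, barcodes with 500 or more genes and no more than 10% mitochondrial UMIs were kept. Cells were classed by log2((CD45.1 + 1)/(CD45.2 + 1)), below -0.6 as Treg-origin and above 2.2 as conventional, and conventional cells by Cd4 against Cd8a plus Cd8b1 UMIs. No doublet caller was run; cells between the limits carry both antibodies and were set apart. The 12 sums of UMIs (class by library) were tested with edgeR 4.0.16 (R 4.3.3; quasi-likelihood, TMM, filterByExpr, library as block, Benjamini-Hochberg, adjusted p at most 0.05); the SE is the log2 fold change over the square root of F. The pairing comes from the design: the classes compared within a number are cells of 1 library. Libraries are the replicates of a class (n = 4). Nothing says they are separate cultures or animals beyond the pools of 3, so p-values measure the spread between these libraries. The edgeR fit without the filter on low counts is an exception. It took the spread of each gene from all genes together, so its p-values do not measure a gene's own spread. Genotypes had 1 library each and no test. Ratios of CPM have exact 95% binomial intervals, and shares exact Clopper-Pearson ones, for counting error only. The background share used genes averaging 20 CPM or more, a pseudocount of 1 CPM and 1.5-fold. Thinning drew 2000 UMIs per cell and left out shallower cells. Genes named beside the members are the 3 with the highest correlation (1 gene is not reported here), and the list genes with the largest changes among those called. The members and lists were chosen with earlier results of these data known. DESeq2 1.42.0, other size factors, filters, antibody limits and each library left out were alternatives. Where barcodes with markers of other cell types were left out, erythroid markers were not used. The edgeR script was tested on simulated data. Python 3.11.15, numpy 2.4.6, scipy 1.17.1 and pandas 2.3.3 were used.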

Additional observations from a re-analysis of the deposited data

Results flagged for a closer look

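Some ratios between genotypes lay on opposite sides of 1 in different classes or backgrounds; these differences were not tested, since each genotype had 1 library. For CD226 loss, Ccl3 in Treg-origin cells stood at 0.447 (TIGIT present) and 2.32 (TIGIT absent), while conventional CD4 cells had 1.66 with TIGIT present. Ccl4 in Treg-origin cells had 0.305 and 2.38 for CD226 loss in the same backgrounds, and 1.62 in conventional CD4 cells with TIGIT present. For TIGIT loss, Ccl4 in Treg-origin cells had 0.521 with CD226 present and 4.08 with CD226 absent. Ccl5 on TIGIT loss with CD226 present had 1.90 in Treg-origin cells, against 0.464 in conventional CD8 and 0.456 in conventional CD4 cells.

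Cells outside the 3 classes held some of the chemokines above and some below the wild-type library. Among cells with both antibodies, Ccl1 in the TIGIT-knockout library was 3.58 times, Ccl3 in the double-knockout library 1.86 times and Ccl5 in the CD226-knockout library 2.43 times the wild-type level. Among conventional cells that Cd4 and Cd8 UMIs did not resolve, Ccl1 in the TIGIT-knockout library was 1.89 times, Ccl3 and Ccl4 in the double-knockout library 2.61 and 2.42 times, and Ccl4 and Ccl5 in the CD226-knockout library 1.78 and 1.91 times the wild-type level. Among the values below the wild-type level were Ccl5 in cells with both antibodies (0.296 times in the TIGIT-knockout and 0.716 times in the double-knockout library) and, in unresolved cells, Ccl1 in the CD226-knockout library (0.540 times), Ccl5 in the TIGIT-knockout library (0.626 times) and Xcl1 in the double-knockout, CD226-knockout and TIGIT-knockout libraries (0.130, 0.325 and 0.333 times).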

How the results depend on the processing

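Of 210 recomputed class tests of members, 168 kept direction and side of the threshold, 23 passed where they had not, 12 no longer passed and 7 changed sign. Some of the 23 came from the fit without the filter on low counts, which does not use a gene's own spread. Of the genotype ratios, 242 moved by less than counting error, 254 by more, and 3 past 1.5-fold crossed 1; counting ratios nearer to 1, 52 of the 499 recomputed values crossed it. A stricter antibody ratio, which leaves 106 to 180 Treg-origin cells a library, gave 3457 called genes for Treg-origin against CD4 cells in place of 5189, and moved these to the other sign: Ccl3 0.14 and Ccl4 0.54 against CD4 cells, Ccl1 -0.77 against CD8 cells, and the Ccl1 ratios in Treg-origin cells 20.7 (TIGIT loss, CD226 present) and 1.71 (double loss). Among Treg-origin cells with more Cd4 than Cd8 UMIs, an alternative chosen after seeing the data, Ccl3 was 0.16 and Ccl4 0.023 against CD4 cells, and the Ccl4 ratio for TIGIT loss with CD226 present 1.10. Leaving out 1 library moved Xcl1 in CD8 against CD4 cells between -0.89 and 0.058 (without the wild-type library), and Ccl4 in Treg-origin against CD8 cells between -0.015 (without the double-knockout library) and 0.55. Past 1.5-fold were 7 of the CD8 ratios when no UMI of the other lineage was allowed and 2 with marker-bearing barcodes left out, in place of 4. The median share of cells with Ccl5 was 24.5% in Treg-origin cells (38.3% strict ratio, 17.0% thinned, 14.6% at 3 or more UMIs), 62.6% in CD8 cells (40.9% thinned, 44.5% at 3 or more) and 25.3% in CD4 cells (11.9% thinned, 10.5% at 3 or more). The median excess of Ccl3 with Ccl4 was 8.11 in Treg-origin cells (4.22 strict, 20.6 at 3 or more UMIs), 2.37 in CD8 cells (5.20 thinned, 8.24 at 3 or more) and 5.92 in CD4 cells (10.4 thinned, 13.2 at 3 or more). The 5 richest CD4 cells held a median of 22.1% of Ccl4 UMIs, and 35.8% at the strict ratio. The cause of these changes was not tested.

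Without the library as replicate block, Ccl4 in CD8 against CD4 cells was -0.63 (edgeR adjusted p = 0.080) and Ccl5 in Treg-origin against CD8 cells 0.70 (adjusted p = 0.072); no other member call changed without the block.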
